A study of Mus musculus with 3 samples.

Results

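The voltage-gated sodium channel alpha subunit genes are described here across 3 spotted arrays. The cells were N1E-115, a line derived from a mouse neuroblastoma. They were taken as every spot whose gene symbol is Scn, a number and the letter a, including Scn2a under its older symbol. The rule found 11 probes for 10 genes, among 21761 gene probes for 17185 named genes. Scn7a had 2 probes, named here by their accessions L36179 and AK004093, and each other gene had 1. The rule used names only and no measured value.

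Each array held 2 RNAs. The Alexa555 channel carried RNA of cells transfected with pEGFP-C1, which encodes enhanced green fluorescent protein (EGFP) alone. The Alexa647 channel carried RNA of cells transfected with pEGFP-Nav1.2CTFlag, which encodes EGFP joined to a C-terminal stretch of 229 residues from the mouse channel NaV1.2, called NaV1.2CT here. The fusion is not a channel, because it lacks the membrane-spanning part of the protein. Per the labels, 1 array compared the plasmids at 5 mM glucose and 2 arrays, replicates 1 and 2, compared them at 20 mM glucose. In every group the cells were transfected with polyethylenimine and 2 µg of plasmid 24 h after plating, RNA was taken 48 h later, RNA of 3 dishes was pooled and 10 µg was labelled. The stated culture medium is a low-glucose one for each sample alike, and the glucose levels are known from the sample titles and the series text. The labels do not tie the arrays to separate cultures, so the p-values below measure the spread between these arrays, which may be technical. The dyes had the same orientation on every array, so an effect of the dye on a probe cannot be told apart from an effect of the plasmid. The share of cells that took up a plasmid was not given, and in a pool of RNA fewer cells with a transcript and less transcript per cell cannot be told apart.

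Voltage-gated sodium channels carry the inward current that starts and propagates the action potential. The alpha subunit forms the pore and senses voltage on its own, while small beta subunits, fibroblast growth factor homologous factors and calmodulin bind to it and adjust its gating and its place in the membrane. Calmodulin and the growth factor homologous factors bind to the C-terminus, the part of NaV1.2 that the fusion carries. Scn1a, Scn2a, Scn3a and Scn8a are the main genes of the brain, Scn4a serves skeletal muscle, and Scn9a, Scn10a and Scn11a are best known from peripheral neurons. Scn7a encodes a related protein that acts as a sensor of extracellular sodium rather than as a voltage-gated channel. Neuroblastoma lines of this kind have long served as a model of the neuronal sodium current.

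In the mouse genome these genes lie in clusters. In the gene order of the assembly GRCm38.p6, chromosome 2 holds 5 of the 10 genes, with Scn3a beside Scn2a, and Scn1a, Scn9a and Scn7a side by side. Scn10a and Scn11a are direct neighbours on chromosome 9. Scn4a lies on chromosome 11 and Scn8a on chromosome 15. The array files give accessions but no probe sequence and no place within the transcript. The Scn2a probe has the accession L42336, and the files describe it as a 3' end sequence. Whether it covers the stretch carried by the plasmid, and so also reads the plasmid's transcript, was not tested.

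All 11 probes gave signal over the empty spots. The limit was the 95th percentile of the background-subtracted intensity of 1235 empty spots, between 67.8 and 93.3 units, and each alpha subunit probe exceeded it in both channels on each array, as did 92%, 92.4% and 91.5% of all probes on the 3 arrays. Raw intensity ran from 243.5 to 12270 units in the EGFP channel and from 207.2 to 12930 units in the NaV1.2CT channel, over local backgrounds of 38.39 to 92.51 units. No alpha subunit spot reached the scanner's ceiling. Signal over the empty spots was not specific to genes of these cells: it was also found for 104 of 139 olfactory receptor genes (74.8%) and for 4 of 6 measured muscle and heart markers. By the same limit 16 of 16 measured neuroblastoma and sympathetic markers, 7 of 8 glial, 5 of 7 fibroblast, 4 of 4 sensory neuron and 2 of 3 blood markers were above it on all 3 arrays. The intensity of a spot was therefore not read as expression of its gene, and no probe's level was set against another probe's.

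**Figure D1:**
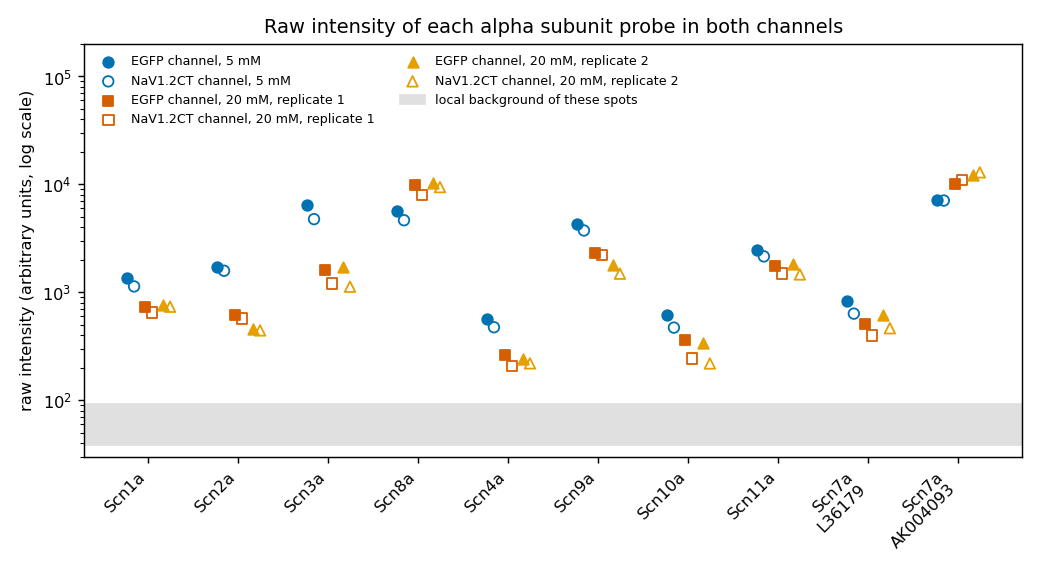
Raw intensity in arbitrary units on a log axis for 10 alpha subunit probes, filled symbols for the EGFP channel and open symbols for the NaV1.2CT channel, by array. The grey band is the range of local background of these spots, 38.39 to 92.51 units. Each point lies above the band, and the NaV1.2CT symbol lies close to the EGFP symbol of the same array.

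The first question is whether the cells with the NaV1.2CT plasmid held more or less RNA of the channels themselves than cells with EGFP alone. No alpha subunit probe passed the test. The log2 ratios of NaV1.2CT over EGFP, after background correction and loess normalisation within each print block (the patch of spots laid down by one pin), lay between -0.14 and 0.15 for all probes on all arrays. On each array, all 11 values fell between the 5th and the 95th percentile of all probes, which were -0.18 and 0.14 at 5 mM, -0.17 and 0.13 on replicate 1 and -0.18 and 0.16 on replicate 2 at 20 mM. For the dim spots of Scn4a and Scn10a the ratio depended on the background correction. Their 20 mM means were 0.090 and -0.12 here, against 0.18 and -0.17 with plain background subtraction, where neither passed. As a measure of spot-to-spot error, the log2 ratio of 231 spots of the GAPDH control had an SD of 0.061 at 5 mM and of 0.049 and 0.078 on the 20 mM replicates. Their median log2 brightness over both channels was 13.8 at 5 mM and 13.8 and 13.6 at 20 mM. The lowest was 6.17 at 5 mM and 6.11 and 7.63 at 20 mM, so not all of these spots were bright. The alpha subunit probes ran from 7.97 to 13.63, so this SD need not hold for the dimmer ones. Over all probes the SD of the log2 ratio was 0.10 at 5 mM and 0.099 and 0.11 on the 20 mM replicates.

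At 20 mM glucose 0 of 11 probes passed at an adjusted p under 0.05 (limma, mean of the 2 arrays against 0, Benjamini-Hochberg adjustment over all probes), against 3.08% of all probes, or 670 of 21761, with 0.937% higher and 2.14% lower. Without adjustment, 2 of the 11 and 4887 of all probes had p under 0.05. Of the members, 6 lay above 0 and 5 below, with a median log2 ratio of 0.022 against -0.0023 over all probes. The 95% intervals of the 11 estimates stayed within -0.21 and 0.21. Over all 3 arrays again 0 of 11 passed, against 3.8% of all probes, or 827, with 1.16% higher and 2.64% lower. There 2 of the 11 and 5217 of all probes had an unadjusted p under 0.05. The median was 0.038 against -0.0033 over all probes, and the intervals stayed within -0.17 and 0.19. Scn2a, Scn4a, Scn8a and Scn9a lay above 0 on 3 of 3 arrays, 4 of 11 against 21.9% of all probes, with Scn9a only just above 0 at 5 mM. Scn10a lay below 0 on 3 of 3 arrays, 1 of 11 against 25% of all probes.

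**Figure D2:**
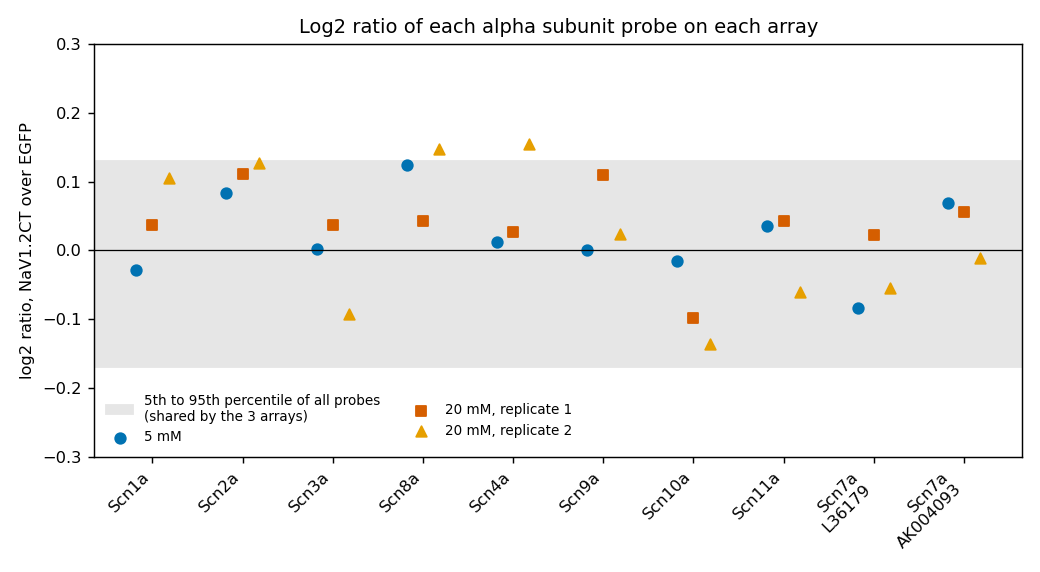
Log2 ratio of NaV1.2CT over EGFP for 10 alpha subunit probes, with 1 symbol per array. The grey band runs from -0.17 to 0.13, the 5th to 95th percentile range common to the 3 arrays. Replicate 2 values of Scn8a and Scn4a, 0.15 each, lie above the common band and inside the range of their own array, and each of the other points lies inside the band.

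Among the brain channels, Scn2a is the gene that encodes NaV1.2 itself, which in young neurons gathers at the start of the axon. Its log2 ratio was 0.084 at 5 mM and 0.11 and 0.13 on the 20 mM replicates. All 3 values were positive and close together, with raw intensities of 1728, 616.2 and 457.6 units in the EGFP channel and 1584, 574.3 and 443.6 units in the NaV1.2CT channel, in the same order of arrays. The mean at 20 mM was 0.12 ± 0.011 (SD, n = 2; 1.09-fold), with an unadjusted p of 0.0178 and an adjusted p of 0.137 by limma. Over 3 arrays it was 0.11 ± 0.022 (SD, n = 3), with a 95% interval of 0.030 to 0.18 and an adjusted p of 0.104. The endogenous and any plasmid signal at this probe thus differed between the channels by an amount that did not pass the test.

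Scn8a encodes the channel of the mature axon initial segment and of the nodes of Ranvier. Its log2 ratio was 0.12 at 5 mM and 0.042 and 0.15 on the 20 mM replicates. Raw intensity was 5625, 9957 and 10380 units in the EGFP channel and 4655, 7992 and 9434 units in the NaV1.2CT channel. The ratio was positive on each array, and the 5 mM value lay between those of the 20 mM replicates. At 20 mM the mean was 0.095 ± 0.075 (SD, n = 2) with an adjusted p of 0.245. Over 3 arrays the mean was 0.10 ± 0.055 (SD, n = 3; 1.08-fold), with a 95% interval of 0.022 to 0.19, an unadjusted p of 0.0188 and an adjusted p of 0.13 by limma. The Scn8a spot at 5 mM was uneven: the SD over its pixels was 73.7% of the mean in the EGFP channel and 72.2% in the NaV1.2CT channel, the highest among the alpha subunit spots, against 10.9% to 16.9% on the 20 mM arrays.

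Scn1a, the main channel of inhibitory interneurons, had log2 ratios of -0.029 at 5 mM and 0.037 and 0.11 at 20 mM, with EGFP-channel intensities of 1351, 728.3 and 760.5 units and NaV1.2CT-channel intensities of 1134, 651.9 and 735.5 units. The 5 mM array lay on the other side of 0 from both 20 mM arrays. The 20 mM mean was 0.071 ± 0.048 (SD, n = 2), with an adjusted p of 0.357 by limma. Scn3a, expressed mostly in the embryonic brain, gave 0.0013 at 5 mM and 0.037 and -0.093 at 20 mM. The replicates at 20 mM had opposite signs, and their mean of -0.028 ± 0.092 (SD, n = 2) had an adjusted p of 0.761 by limma. Its intensities were 6427, 1615 and 1706 units in the EGFP channel and 4766, 1211 and 1128 units in the NaV1.2CT channel.

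The spot of Scn4a was dim on each array. Scn4a, the channel of skeletal muscle, had log2 ratios of 0.012 at 5 mM and 0.027 and 0.15 at 20 mM. Its intensities of 562.2, 264.6 and 243.5 units in the EGFP channel and 474.6, 207.2 and 219.6 units in the NaV1.2CT channel lay above the empty-spot limits, and the replicate 2 value stood apart from the other two. The 20 mM mean was 0.090 ± 0.090 (SD, n = 2), with an adjusted p of 0.282 by limma.

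Among the channels of peripheral neurons, Scn10a encodes a tetrodotoxin-resistant channel of pain-sensing neurons. Its log2 ratio was -0.015 at 5 mM and -0.098 and -0.14 on the 20 mM replicates. Intensities were 611.1, 360 and 337.4 units in the EGFP channel and 471, 243.7 and 219.1 units in the NaV1.2CT channel. It was the only alpha subunit probe below 0 on each array, with the 5 mM value nearest to 0. Its pixel SD in the EGFP channel was 51% of the mean at 5 mM, against 20.6% and 23.1% at 20 mM. At 20 mM the mean was -0.12 ± 0.027 (SD, n = 2; 1.08-fold lower), with a 95% interval of -0.21 to -0.023, an unadjusted p of 0.0198 and an adjusted p of 0.143 by limma. Over 3 arrays it was -0.083 ± 0.062 (SD, n = 3), with an adjusted p of 0.215 and an interval that reached 0.0013.

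Scn9a, a channel of sensory and sympathetic neurons, had log2 ratios of 0.00030 at 5 mM and 0.11 and 0.024 at 20 mM, with EGFP-channel intensities of 4299, 2333 and 1779 units and NaV1.2CT-channel intensities of 3741, 2219 and 1488 units. The 5 mM ratio was at 0 within any error given here, and the mean at 20 mM was 0.067 ± 0.060 (SD, n = 2; adjusted p = 0.398, limma). Both Scn9a spots at 20 mM were uneven. Their pixel SD was 67.6% of the mean in both channels on replicate 1, and 60% and 60.6% on replicate 2. At 5 mM it was 27% in the EGFP channel and 29.9% in the NaV1.2CT channel. Scn11a, a second tetrodotoxin-resistant channel of pain-sensing neurons, gave 0.035 at 5 mM and 0.043 and -0.061 at 20 mM. Its mean at 20 mM was -0.0089 ± 0.073 (SD, n = 2; adjusted p = 0.929, limma), the estimate closest to 0 of the 11. Its intensities were 2450, 1750 and 1825 units in the EGFP channel and 2151, 1496 and 1464 units in the NaV1.2CT channel.

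Scn7a, the sodium sensor, was the gene with more than 1 probe. Probe L36179 gave log2 ratios of -0.084 at 5 mM and 0.022 and -0.054 at 20 mM, with intensities of 823.3, 512.4 and 615 units in the EGFP channel and 634.5, 399.1 and 464.6 units in the NaV1.2CT channel. Probe AK004093 gave 0.069 at 5 mM and 0.056 and -0.011 at 20 mM, with intensities of 7191, 10160 and 12270 units in the EGFP channel and 7084, 10970 and 12930 units in the NaV1.2CT channel. The probes had opposite signs at 5 mM, and each had mixed signs at 20 mM. Their means at 20 mM were -0.016 ± 0.054 (SD, n = 2; adjusted p = 0.86, limma) and 0.022 ± 0.047 (SD, n = 2; adjusted p = 0.795, limma). From the 5 mM array to the 20 mM arrays the raw intensity of L36179 was lower and that of AK004093 higher in both channels, while the median spot of the array went from 1706 to 1172 and 1106 units in the EGFP channel, so the probes of this gene disagreed in their level across the arrays.

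The next question is whether the ratio depended on glucose. The log2 ratio at 5 mM minus that at 20 mM passed the test for 0 of 11 probes, against 0.0414% of all probes, or 9, with 0.023% higher and 0.0184% lower at 5 mM. The adjusted p ran from 0.762 to 0.96 by limma, no alpha subunit probe and 1669 of all probes had an unadjusted p under 0.05, and the intervals lay within -0.27 and 0.26. Scn10a, at 0.10, and Scn1a, at -0.10, had the differences farthest from 0, with adjusted p of 0.762 and 0.771. This comparison rests on 1 array at 5 mM, whose spread is assumed to be like that of the others.

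How the ratios were normalised changed the calls. With 1 loess curve over the whole array in place of 1 per print block, 5 of the 11 probes passed at 20 mM: Scn2a at 0.22 (adjusted p = 0.00228, limma), Scn1a at 0.19 (adjusted p = 0.00592), Scn3a at -0.20 (adjusted p = 0.00749), Scn10a at -0.15 (adjusted p = 0.0207) and Scn8a at -0.15 (adjusted p = 0.033). Scn8a thereby changed sign, from 0.095 with loess per print block. In that setting the median log2 ratio of a print block ranged from -0.29 to 0.11 over the 48 blocks. The block of Scn8a was at -0.22, that of Scn3a at -0.15, that of Scn1a at 0.10, that of Scn2a at 0.083 and that of Scn10a at -0.037. Each of these 5 block medians had the sign of the probe's own value. Among the probes that did not pass, Scn11a was at -0.00064 in a block at 0.0027 and the L36179 probe of Scn7a at -0.021 in the same block. The AK004093 probe of Scn7a, at 0.12 in a block at 0.064, did not pass either. Nor did Scn4a, at 0.11 in a block at 0.034, or Scn9a, at 0.094 in a block at 0.022. AK004093, Scn4a and Scn9a also had the sign of their block. The part of the print block in the calls was not tested. With median centring and no loess, 4 of the 11 passed: the AK004093 probe of Scn7a at 0.37 (adjusted p = 3.16e-07, limma), Scn10a at -0.26 (adjusted p = 0.000466), Scn3a at -0.21 (adjusted p = 0.00597) and Scn2a at 0.16 (adjusted p = 0.0495). There the blocks of these probes were at 0.097, -0.051, -0.17 and 0.068, while Scn8a, at 0.049, lay in a block at -0.20. These settings called 34.6% and 37.3% of all probes, or 7527 and 8111, against 3.08%, or 670, with loess per print block. The calls of alpha subunit genes thus came with calls across the whole array. Scn2a lay above 0 and Scn10a and Scn3a below 0 under each of the normalisations tried at 20 mM.

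**Figure D3:**
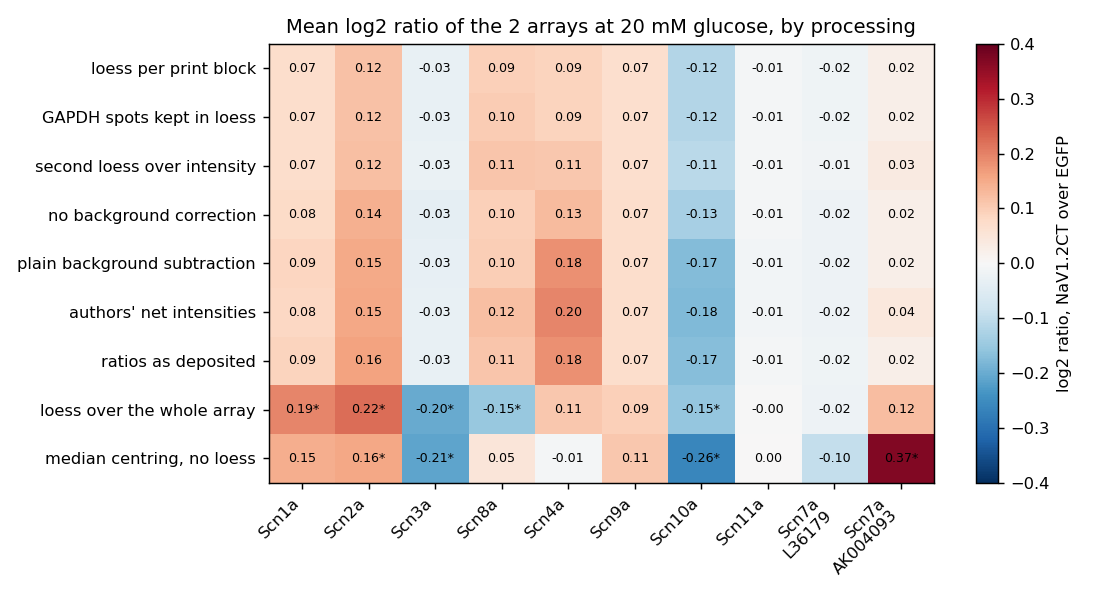
Mean log2 ratio of NaV1.2CT over EGFP on the 2 arrays at 20 mM for 10 alpha subunit probes (columns) under 9 ways of processing (rows), with the colour scale from -0.4 to 0.4. An asterisk marks an adjusted p under 0.05 (limma), and asterisks appear in the whole-array loess row (5) and the median centring row (4). Scn8a is 0.095 in the top row and -0.15 with loess over the whole array.

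The EGFP-channel level of each alpha subunit probe was then compared between the glucose levels, after normalisation to a common intensity distribution. This level is the intensity of the probe with RNA of control cells and, as above, was not read as expression of its gene. The comparison rests on 1 array at 5 mM, so glucose and whatever else set that array apart cannot be told apart. Its array number in the deposited files starts differently from those of the 20 mM arrays, and the labels do not say what that number stands for. Of the 11 probes, 1 was higher at 5 mM and 1 lower at an adjusted p under 0.05 (limma), and 9 did not pass, against 13.3% of all probes called, 7.23% higher and 6.08% lower. A count of 2 in 11 is near this background. The median difference was 0.27 for the alpha subunit probes and -0.036 for all probes, whose 5th and 95th percentiles were -1.2 and 1.4 on the log2 scale.

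Scn3a was the probe that was higher at 5 mM. Its log2 EGFP-channel level was 12.03 at 5 mM and 10.62 and 10.79 at 20 mM. The difference was 1.33, or 2.51-fold, with a 95% interval of 0.76 to 1.89 and an adjusted p of 0.0346 by limma, with 1.36 in the NaV1.2CT channel. Scn8a was lower at 5 mM, with levels of 11.86 at 5 mM and 13.21 and 13.43 at 20 mM. Its difference was -1.46, or 2.76-fold lower, with a 95% interval of -2.05 to -0.87 and an adjusted p of 0.032 by limma, with -1.43 in the NaV1.2CT channel. The Scn8a value at 5 mM comes from the uneven spot described above. Both channels are read from the same spots, so the NaV1.2CT differences are not independent of the EGFP ones.

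Print blocks differed in the same quantity. The median 5 mM minus 20 mM difference of all probes of a block ran from -0.71 to 0.89 over the 48 blocks, and block membership accounted for 21% of the variance. The block of Scn3a was at 0.58 and that of Scn8a at -0.69, each with the sign of its probe. After each print block was centred on its median, Scn3a differed by 0.51 (adjusted p = 0.146, limma) and Scn8a by -0.55 (adjusted p = 0.161), so neither passed. In that setting Scn9a passed at 1.10 (adjusted p = 0.0329) and Scn2a at 0.97 (adjusted p = 0.0397), so again 2 of 11 passed, against 18.2% of all probes. The Scn9a spots at 20 mM were the uneven ones described above. The Scn2a spot had a pixel SD in the EGFP channel of 46.4% of the mean at 5 mM, against 11.7% and 17% at 20 mM. Scaling the EGFP channel by its median or its 75th percentile left 0 of 11 calls, with Scn3a at 1.41 (adjusted p = 0.0705) and 1.31 (adjusted p = 0.118) and Scn8a at -1.41 (adjusted p = 0.0706) and -1.50 (adjusted p = 0.0975). Under those scalings the median over all probes was -0.23 and -0.33.

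**Figure D4:**
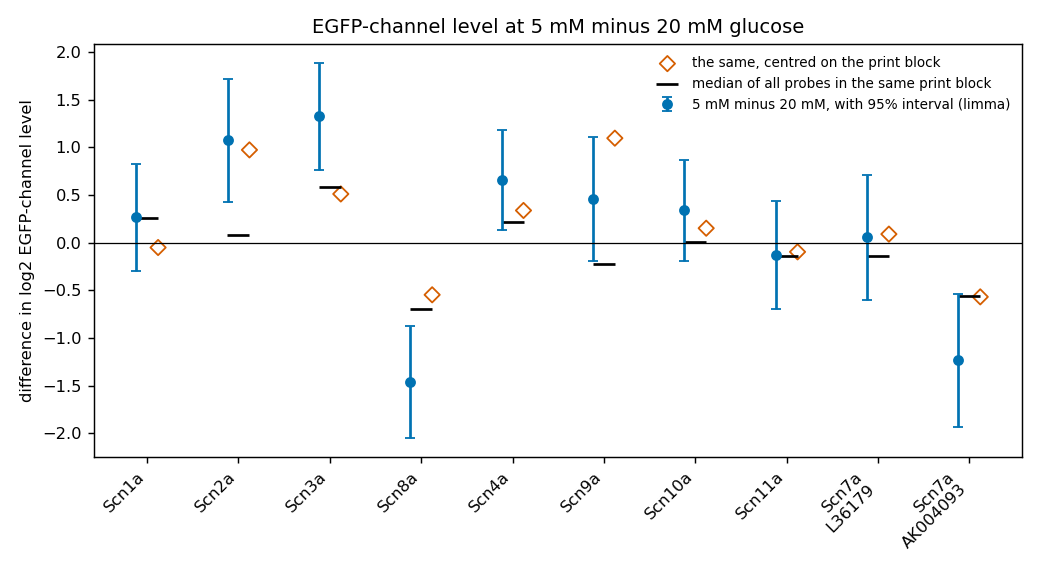
Difference in log2 EGFP-channel level, 5 mM minus 20 mM glucose, for 10 alpha subunit probes, as the limma estimate with its 95% interval (filled points and bars). Open diamonds give the difference after centring on the print block, and black dashes give the median of all probes in the same block. Scn3a at 1.33 and Scn8a at -1.46 move to 0.51 and -0.55 after centring, while Scn2a stays near 1.

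Outside these calls, Scn2a differed by 1.07 (levels 10.32 at 5 mM, 9.41 and 9.10 at 20 mM; adjusted p = 0.0588, limma), in a print block with a median of 0.084. The AK004093 probe of Scn7a differed by -1.24 (12.39 at 5 mM, 13.44 and 13.83 at 20 mM; adjusted p = 0.0529), in a block with a median of -0.56. For both, the 5 mM value lay outside the 20 mM replicates. Scn4a differed by 0.66 (adjusted p = 0.0968), Scn9a by 0.46 (adjusted p = 0.252), Scn10a by 0.34 (adjusted p = 0.292) and Scn1a by 0.27 (adjusted p = 0.426). Scn11a at -0.13 and the L36179 probe of Scn7a at 0.057 were near 0, with adjusted p of 0.713 and 0.903. Marker genes of other cell types were called between the same arrays, where 7.23% of all probes were higher and 6.08% lower: 3 of 8 measured glial markers were lower and 1 higher at 5 mM, and 2 of 4 sensory neuron markers were lower. Of the neuroblastoma and sympathetic markers 1 of 16 was higher, and no fibroblast, muscle and heart or blood marker passed. Their part in the result was not tested.

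Proteins that bind sodium channels or act beside them were read from 7 lists of 42 genes, of which 34 were measured. At 20 mM 1 passed higher and 2 lower in the ratio of NaV1.2CT over EGFP, against 3.08% of all probes, and the median was 0.011. Of the beta subunits, single-pass partners that modulate gating and adhesion, 0 of 3 measured genes passed: the 20 mM log2 ratios were -0.051 for Scn2b (adjusted p = 0.535, limma) and -0.020 for the brighter of 2 Scn3b probes (adjusted p = 0.82). The fibroblast growth factor homologous factors bind the C-terminus, and 0 of 4 passed, with ratios of 0.018 for Fgf11, 0.019 for Fgf12, 0.013 for Fgf13 and 0.020 for Fgf14. Of these, Fgf12 was above the empty-spot limit on all 3 arrays, and Fgf11, Fgf13 and Fgf14 on none, so no ratio can be read for those 3. Of calmodulin genes 0 of 2 measured passed.

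Among 9 measured anchoring genes, 1 passed higher and 1 lower at 20 mM, against 0.937% of all probes higher and 2.14% lower. The one that was higher was Sptbn4, read from the brighter of 2 probes, at the 99.6th percentile of mean brightness. Sptbn4, a spectrin of the axon initial segment and nodes of Ranvier, had log2 ratios of 0.074 at 5 mM and 0.24 and 0.17 at 20 mM, and its mean ratio at 20 mM was 0.21 (adjusted p = 0.0409, limma). Over 3 arrays its adjusted p was 0.0591. At 20 mM the mean ratio of Sptbn4 was 0.31 with loess over the whole array (adjusted p = 0.000247) and 0.92 with median centring (adjusted p = 7.79e-41). From the authors' net intensities it was 0.17 and did not pass (adjusted p = 0.226), and with an intensity trend in the model it stayed at 0.21 with an adjusted p of 0.237. Plain background subtraction (adjusted p = 0.186, limma), no background correction (0.0593) and deposited ratios (0.158) also lost the call. The filter on dim probes (0.0226), a second loess (0.0428) and keeping GAPDH spots (0.0492) kept it. Of 5 measured sodium leak and degenerin channels, 3 were above the empty-spot limit on all 3 arrays. Of the 5, 1 passed, in the lower direction, against 2.14% of all probes lower at 20 mM. This was Asic2, a degenerin-family channel gated by protons. Its spot was not above the empty-spot limit on replicate 1 at 20 mM, so no ratio is read there and no mean at 20 mM is given. On the other arrays its log2 ratio was -0.094 at 5 mM and -0.36 on replicate 2. The counted call of Asic2 at 20 mM includes replicate 1, and the filter on dim probes removed the probe. Plain background subtraction (adjusted p = 0.0961, limma), net intensities (0.0892), deposited ratios (0.079) and the intensity trend (0.27) lost the call. Whole-array loess, median centring, no background correction, a second loess and keeping GAPDH spots kept it.

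None of the 9 measured ubiquitin ligases and kinases, such as Nedd4 and Nedd4l, which tag channels for removal from the membrane, passed in the ratio. Of the 9, 7 were above the empty-spot limit on all 3 arrays. Fyn and Mapk14 were above it on none, so no ratio can be read for them. The largest mean over 3 arrays there was that of Gsk3b at -0.10 (adjusted p = 0.148, limma), and among the 2 trafficking genes, of which 0 passed, that of Pdzd2 at 0.097 (adjusted p = 0.216). Between the glucose levels, 0 of 34 passed in the ratio, against 0.0414% of all probes. In the EGFP channel 2 of 34 were lower at 5 mM and 0 higher, against 13.3% of all probes. These were Fgf12, with a log2 level of 8.999 at 5 mM and 10.32 and 10.24 at 20 mM (difference -1.28, adjusted p = 0.0338, limma), and Asic1, with 11.98 at 5 mM and 13.87 and 14.12 at 20 mM (difference -2.01, adjusted p = 0.0233). With the EGFP channel scaled by its 75th percentile the differences were -1.49 and -2.08 and did not pass (adjusted p = 0.0964 and 0.0585). With scaling by the median they were -1.39 (adjusted p = 0.0721) and -1.98 (adjusted p = 0.0364), and after print block centring both passed, at -1.38 (adjusted p = 0.0107) and -1.10 (adjusted p = 0.0198).

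The genes whose log2 ratios over the 3 arrays were nearest to those of Scn8a, by Euclidean distance among 16593 named probes above the empty-spot limit, were Arhgap1 (0.0097), Plaur (0.012) and Pfkfb1 (0.013). Nearest to Scn10a were Lgals8 (0.0093), Hnf4g (0.012) and 3830403N01Rik (0.012). Within a distance of 0.05 lay 159 probes for Scn8a and 260 for Scn10a, so neither pattern was rare among the probes.

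The authors' deposited table gives a z-score per spot, positive for alpha subunit probes whose deposited EGFP over NaV1.2CT ratio, from net intensities that the authors rescaled, was below 1. It holds a z-score for 11 of the 11 alpha subunit probes at 5 mM and on replicate 1 at 20 mM, and for 5 on replicate 2. In the authors' deposited table Scn8a had z-scores of 1.54, 0.591 and 1.63, the highest of the 11 alpha subunit probes at 5 mM and of the 5 scored on replicate 2. For Scn2a the authors' deposited table gives 1.17 and 1.3, and for Scn10a -0.218 and -1, with none for either on replicate 2. Over all alpha subunit probes the scores in the authors' deposited table ran from -1 to 1.63.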

How the data were processed

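The deposited files hold, per the file headers, the mean raw and background intensity of each of 23232 spots in both channels, with pixel SDs. The deposited net intensity is raw minus background, scaled further in the NaV1.2CT channel by a spot-dependent factor. The deposited ratio is EGFP over NaV1.2CT, from the net intensities, and the deposited score is a z-score. How the authors made the factor and the score, the scanner and the software are not given in the sources used here.

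Raw and background intensities were corrected with normexp (offset 50) in limma 3.58.1 under R 4.3.3. Log2 ratios were normalised by loess within each of 48 print blocks, with 1235 empty and 231 GAPDH control spots at weight 0. EGFP-channel levels were taken after Aquantile normalisation. Averaging spots that shared accession and description turned 21766 gene spots into 21761 probes. Symbols were updated through a mouse gene table of GRCm38.p6: 14215 probes matched a current symbol, 2117 an older one and 96 an accession, 2150 stayed under the symbol in the file and 3183 were unnamed. limma (lmFit, eBayes) tested all probes, two-sided, with Benjamini-Hochberg adjustment and a threshold of 0.05. Residual degrees of freedom were 1 at 20 mM, 2 over 3 arrays and 1 for each difference between glucose levels. The code was tested on simulated data. No replicate check of the 5 mM array exists, and the number of arrays limits the precision.

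Probes were not filtered on intensity. The rule names every alpha subunit probe, every beta subunit and fibroblast growth factor homologous factor, and in the other lists each gene that passed and the gene with the largest absolute mean ratio of its list, with 1 probe a gene, the brightest. Some genes that the rule names are not reported here, although counts include them. The members and lists were chosen with earlier results of these data known. The alternatives were other normalisations, background corrections, starting values, a filter on dim probes, another variance prior and leaving out arrays.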

Additional observations from a re-analysis of the deposited data

How the results depend on the processing

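The settings tried include 4 added after seeing the data: GAPDH spots kept in the loess, the EGFP channel scaled by its median or by its 75th percentile, and print block centring. Background correction, net intensities, deposited ratios, a second loess, the filter on dim probes, the variance prior and the GAPDH spots left 0 of 11 alpha subunit probes called in the ratio at 20 mM and over 3 arrays, and so did leaving out each array over 3 arrays. Some of these settings called almost no probe at all. Over 3 arrays plain subtraction called 2 of 21701, net intensities 1 of 21701 and deposited ratios 4 of 21701. The variance prior, with its intensity trend, called 0 of 21761 over 3 arrays and at 20 mM. Under those settings 0 of 11 was close to fixed in advance, so nothing is drawn from it. Loess over the whole array gave 5 calls at 20 mM and 4 over 3 arrays, and median centring gave 4 and 4. Of all probes, whole-array loess called 34.6% at 20 mM and 34.3% over 3 arrays, and median centring 37.3% and 40.4%. For the difference of ratios each setting with a test gave 0. These settings called between 0.0276% and 0.767% of all probes, so 0 of 11 was close to fixed in advance there too. Nothing is drawn from it. In the EGFP channel, against 2 calls, median centring of each array, plain background subtraction and the filter on dim probes gave 4 each, the intensity trend gave 5, and scaling by the median or the 75th percentile gave 0 and 0. The calls over all probes moved along, from 13.3% to 20.3%, 16.8%, 24.2%, 26.8%, 4.6% and 1.83%, in that order. With no background correction 3 alpha subunit probes were called in the EGFP channel, against 14.6% of all probes.

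Signs turned as follows. With loess over the whole array Scn8a was -0.15 at 20 mM and -0.12 over 3 arrays, and in the difference of ratios Scn3a was -0.036. With median centring Scn4a was -0.0070 at 20 mM and -0.0053 over 3 arrays, Scn11a was 0.0013 at 20 mM, and in the difference of ratios Scn8a was -0.080, Scn4a 0.0049 and the AK004093 probe of Scn7a -0.15. With GAPDH spots kept, Scn8a was -0.00018 in that difference. In the EGFP channel L36179 of Scn7a was -0.057 by the median and -0.16 by the 75th percentile, and Scn1a -0.051 after block centring. Leaving out 1 array at a time, the mean over 3 arrays ran from -0.013 to 0.039 for Scn11a and from -0.046 to 0.019 for Scn3a. With 1 array at 20 mM left out, where no test remains, the sign also turned at 20 mM for Scn3a (0.037), Scn11a (0.043) and L36179 of Scn7a (0.022) without replicate 2 and for AK004093 of Scn7a (-0.011) without replicate 1. It turned in the difference of ratios for Scn8a (-0.024) without replicate 1 and for Scn3a (-0.036) and Scn11a (-0.0077) without replicate 2, and in the EGFP channel for L36179 (-0.11) without replicate 1. Beyond the print block values given with the results, the cause was not tested.

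Over all probes the calls at 20 mM were 670, and 7527 with whole-array loess, 8111 with median centring, 50 with plain subtraction, 81 from net intensities, 105 from deposited ratios, 1011 with a second loess, 459 with GAPDH spots kept and 0 with the intensity trend. The share of calls that were higher was 30.4%, against 41.1% with whole-array loess, 49.6% with median centring, 42.9% from deposited ratios and 20% with plain subtraction. In the EGFP channel they were 2895, and 1001 and 398 by median and 75th percentile.

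No paired analysis was possible because the 5 mM and 20 mM groups share 1 replicate number. With a 20 mM array left out, the comparisons at 20 mM and between glucose levels have no residual degrees of freedom and gave values with no test.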
